A study of Mus musculus with 4 samples.

Results

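The IL-6 family was followed here through 10 genes of the 31053 in the matrices: the ligands Il6, Lif, Osm and Il11, the receptor chains Il6ra, Il6st, Osmr and Lifr, and the signalling genes Socs3 and Stat3. The genes were listed by name with no threshold on a value, though with earlier results of these data known, and were read in every cell class of 4 single-cell RNA libraries of mouse back skin. All mice were BALB/c. The Cd226-/- library came from mice lacking Cd226, which encodes the activating receptor DNAM-1, and the WT library from mice with the gene. Both groups received 25 µg of the mutagen DMBA once on shaved back skin and, starting 1 week later, 5 µg of the tumor promoter TPA weekly for 3 applications. Cells were taken 3 weeks after treatment, 3 mice were pooled per treated library, and the sorted CD45+ and CD45- fractions were recombined 1:1. Untreated (naive) skin gave 1 CD45+ and 1 CD45- library, and each of these is a 1:1 pool of WT and Cd226-/- cells, so genotype cannot be compared in naive skin.

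IL-6 family cytokines share a receptor chain, gp130, encoded by Il6st. Each ligand adds a further chain, called specific here to set it apart from gp130. IL-6 uses IL-6R (Il6ra), LIF uses LIFR, mouse oncostatin M uses OSMR, and IL-11 uses its own alpha chain. The assembled receptor activates JAK kinases and the transcription factor STAT3, and STAT3 induces Socs3, whose product binds gp130 and damps the signal. In skin the family is known for acute-phase induction, wound repair, and keratinocyte and fibroblast activation, and STAT3 is required for tumor formation in the DMBA and TPA model.

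In GRCm38 coordinates with the GENCODE vM21 annotation, Il6 lies at chr5:30013114-30019981 (+), Il11 at chr7:4772373-4782859 (-) and Il6ra at chr3:89864059-89913196 (-). Osm (chr11:4236420-4241026, +) and Lif (chr11:4257557-4272514, +) are neighbours, 16.53 kb apart. Il6st lies at chr13:112464070-112510086 (+), Osmr at chr15:6813577-6874969 (-), Lifr at chr15:7090614-7197489 (+), Socs3 at chr11:117966079-117970047 (-) and Stat3 at chr11:100885098-100939540 (-). Promoter windows of 300 bases, 250 before to 50 after a start given by RefSeq (GRCm38.p6), were available for 9 of the 10 members. The RefSeq start can differ from the GENCODE one. The windows of Socs3, Osmr and Lifr and the Il11 window with a match lie inside the gene spans printed above. Positions of matches are counted from the RefSeq start. They were searched for the STAT dimer motif TTCNNNGAA and for the AP-1 motif TGANTCA, AP-1 being the factor family through which TPA is known to act. Both motifs read the same on either strand. The STAT motif is in 8.29% of all 32817 windows and, among the members, in that of Socs3, 154 bases before the start. The AP-1 motif is in 7.81% of all windows and, among the members, in those of Il6 (249 bases before the start), Lif (228 before), Osmr (from base 3 after the start) and 1 of the Il11 windows (98 before). A match describes letters and is no evidence of binding. Shown are the window of the feedback gene Socs3 and those of Il6 and Osmr, the ligand and the specific receptor chain that fibroblasts carried most of in treated skin. Capitals mark the STAT motif in Socs3 (chr11:117969317-117969616, - strand) and the AP-1 motif in Il6 (chr5:30012864-30013163, + strand) and Osmr (chr15:6874264-6874563, - strand).
Socs3: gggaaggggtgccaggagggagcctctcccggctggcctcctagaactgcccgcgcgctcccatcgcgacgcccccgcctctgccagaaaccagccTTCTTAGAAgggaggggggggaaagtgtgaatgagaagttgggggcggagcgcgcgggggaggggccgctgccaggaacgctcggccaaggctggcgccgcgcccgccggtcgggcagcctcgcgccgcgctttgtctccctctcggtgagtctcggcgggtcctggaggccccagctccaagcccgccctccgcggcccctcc
Il6: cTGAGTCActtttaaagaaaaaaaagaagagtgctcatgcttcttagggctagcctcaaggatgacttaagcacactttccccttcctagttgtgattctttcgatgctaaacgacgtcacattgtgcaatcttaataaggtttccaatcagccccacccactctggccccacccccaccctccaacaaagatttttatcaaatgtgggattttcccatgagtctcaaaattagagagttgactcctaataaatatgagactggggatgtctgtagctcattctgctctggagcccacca
Osmr: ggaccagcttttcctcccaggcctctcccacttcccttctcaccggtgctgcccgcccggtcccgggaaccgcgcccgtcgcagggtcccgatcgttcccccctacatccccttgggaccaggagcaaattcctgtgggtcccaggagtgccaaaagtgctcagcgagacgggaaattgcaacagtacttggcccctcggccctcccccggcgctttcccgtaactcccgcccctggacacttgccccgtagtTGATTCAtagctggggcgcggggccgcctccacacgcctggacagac

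Filters kept 6521 Cd226-/- cells at a median of 9070 UMIs (counted RNA molecules), 7042 WT cells at 8350, 10598 cells of naive CD45- skin at 6556 and 3335 of naive CD45+ skin at 8631. Cells were clustered without the family genes and classes were named from markers, so each class name means cells like that type. Immune classes are compared with naive CD45+ cells, and fibroblasts and endothelium with naive CD45- cells. Levels in keratinocytes, lymphatic endothelium and melanocytes are not printed here. A level is given in CPM, the gene's UMIs per 1000000 UMIs of the class. Each group is a single library, so nothing is tested between groups, and brackets give exact 95% intervals that cover counting error only. "Called" means at least 1.5-fold in either direction among genes with at least 50 UMIs over the libraries compared. Both treated libraries are set against the same naive library, so those comparisons share it. A lower level of a class cannot be told apart into fewer expressing cells and less RNA per cell beyond the shares of cells given. Cd226 itself was read at 16.3 CPM in Cd226-/- lymphocytes, 54.7 in WT and 8.31 in naive, and the median count of the DNAM-1 antibody tag per lymphocyte was 2 for Cd226-/-, 44 for WT and 10 for naive cells. Pairs of libraries shared 9 to 21 cell barcodes.

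Osm was the leukocyte ligand. Its level was highest in neutrophils, where it stood at 2380 [2295–2467] CPM in Cd226-/- skin, 2566 in WT skin and 615 in naive skin. That is 3.87-fold [3.61–4.15] over naive in Cd226-/- and 4.17-fold [3.88–4.49] in WT neutrophils, and the ratio of Cd226-/- over WT was 0.927. Osm was detected in 90.8% of the Cd226-/- neutrophils, 95.7% of the WT ones and 53.2% of the naive ones, whose median depths were 3181, 3532 and 2890 UMIs. At 1000 UMIs per cell these shares were 77.1%, 81.6% and 29.2%. Both treated libraries stood well above naive and close to each other, in the share of cells as in the level. The richest 10% of neutrophils held 34.2% of Osm UMIs in Cd226-/-, 33.9% in WT and 55.4% in naive skin. Expressing cells had a median of 8, 9 and 2 Osm UMIs. Such a share depends on the level, so it cannot show how evenly Osm was spread apart from it.

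Among leukocyte classes of at least 100 cells monocytes had the next highest Osm level, with 813 CPM in Cd226-/-, 836 in WT and 459 in naive skin. Treated and naive monocytes are not the same mixture: cluster 9, led by Lyz2, Il1b and Cxcl2, held 98% of Cd226-/-, 97.2% of WT and 33.5% of naive monocytes. Within that cluster Osm stood at 828 CPM in Cd226-/-, 858 in WT and 671 in naive cells, a smaller gap than over all monocytes. In macrophages Osm stood at 300 CPM in Cd226-/-, 189 in WT and 71.2 in naive skin. In macrophages Cd226-/- stood 1.59-fold [1.41–1.79] over WT, and this ratio was 1.70 in cluster 21 and 1.93 in cluster 23, which together hold nearly all macrophages. It was 1.10 when every cell was thinned to 1000 UMIs and 1.24 with doublets kept. Summed neutrophil markers in the macrophage class were 369 CPM in Cd226-/- (7 of 7 markers seen), 187 in WT (6 of 7, Retnlg at 0) and 148 in naive skin (7 of 7), and their part in this difference was not tested. Dendritic or Langerhans cells held Osm at 168 CPM in Cd226-/-, 115 in WT and 41.6 in naive skin, which is 4.03-fold and 2.76-fold over naive, with ranges of 2.20 to 9.48 and 1.58 to 5.90 over the alternatives. Here too the mixture differed, since cluster 11 held 63.7% of Cd226-/-, 76.0% of WT and 12.3% of naive cells of the class, and cluster 0 held 36.3%, 24.0% and 87.7%.

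Lymphocytes had little Osm in WT skin, at 21.7 CPM, and in naive skin, at 16.6, but 87.0 in Cd226-/- skin. The Cd226-/- over WT ratio of 4.01 [2.89–5.70] rested largely on cluster 22, led by Rgs1, Cd3g, Trdc and Cd7, which held 25.3% of the lymphocytes in Cd226-/-, 14.9% in WT and 12.5% in naive skin. Osm in that cluster was 201 CPM in Cd226-/- and 65.1 in WT cells, and 1 Cd226-/- lymphocyte alone held 47 of the 262 UMIs. Without the cluster, an alternative chosen after seeing the data, lymphocytes held 27.7 CPM in Cd226-/- and 16.3 in WT skin, a ratio of 1.71 on 55 and 28 UMIs. With doublets kept the ratio was 1.13. Neutrophil markers summed to 932 CPM in Cd226-/- (7 of 7 seen), 70.2 in WT (5 of 7, with Retnlg and Cxcr2 at 0) and 270 in naive lymphocytes (7 of 7). Monocyte markers summed to 1044 CPM in Cd226-/-, 593 in WT and 494 in naive lymphocytes, with 7 of 7 seen in each. The lymphocytes' own markers summed to 8824, 8493 and 8226 in these libraries. The part of these other-cell transcripts in the lymphocyte values of Osm, Il6ra and Socs3 was not tested.

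Fibroblasts held almost no Osm, with 2.71 CPM in Cd226-/-, 1.06 in WT and 0.0141 in naive skin, from 100, 48 and 1 UMIs. The gene was seen in 2.03% of Cd226-/- fibroblasts, 0.961% of WT and 0.00984% of naive ones. The naive CD45- library held almost no leukocytes, and neutrophil markers in fibroblasts summed to 75.9 CPM in Cd226-/-, 28.7 in WT and 25.2 in naive skin. The part of leukocyte transcripts in these few UMIs was not tested. The Cd226-/- over WT ratio of 2.55 [1.79–3.68] counts among the called ones, and it was 1.06 with doublets kept. A small class of mast cells or basophils held Osm at 1914 CPM in 52 Cd226-/- cells and 1306 in 21 WT cells. Within the treated libraries, Osm UMIs lay mainly in monocytes, which held 49.9% of them in Cd226-/- and 37.4% in WT skin, and in neutrophils, which held 21.8% and 33.2%. Monocytes were 1127 of the Cd226-/- and 470 of the WT cells kept, and neutrophils 293 and 185. Among these 6 classes the order of levels, neutrophils over monocytes over macrophages over dendritic or Langerhans cells over lymphocytes over fibroblasts, held in all 3 groups with counting intervals apart at each step.

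Il6 was mainly a fibroblast ligand by share of UMIs in the treated libraries. It stood at 124 [120–128] CPM in Cd226-/-, 81.9 [79.3–84.6] in WT and 40.5 [39.0–42.0] in naive fibroblasts. Fibroblasts held 89.1% of all Il6 UMIs in the Cd226-/- and 90.7% in the WT library, where they were 42.3% and 57.6% of the cells. The treated fibroblasts stood 3.06-fold [2.92–3.21] over naive in Cd226-/- and 2.02-fold [1.93–2.12] in WT skin. The Cd226-/- over WT ratio was 1.51 [1.45–1.58], just past the 1.5-fold limit, and it was 1.49 when scaled to the median gene and 1.35 after thinning to 1000 UMIs. Il6 was detected in 32.3% of Cd226-/- fibroblasts, 23.1% of WT ones and 11.4% of naive ones, against 0.913% of lymphocytes in Cd226-/-, 0.473% in WT and 0% (of 281 cells) in naive skin, where a count of 0, taken as 3 counts, allows a share of up to 1.07%. Median depths were 12602, 10132 and 6626 UMIs in these fibroblasts and 3593, 3575 and 5915 UMIs in these lymphocytes. After thinning to 1000 UMIs Il6 was in 7.22%, 5.47% and 3.43% of the fibroblasts. The richest 10% held 76.8% of Il6 UMIs in Cd226-/-, 81.9% in WT and 95% in naive fibroblasts. These values depend on the unthinned shares of cells with a UMI given above, so they do not set the groups apart by themselves.

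**Figure D1:**
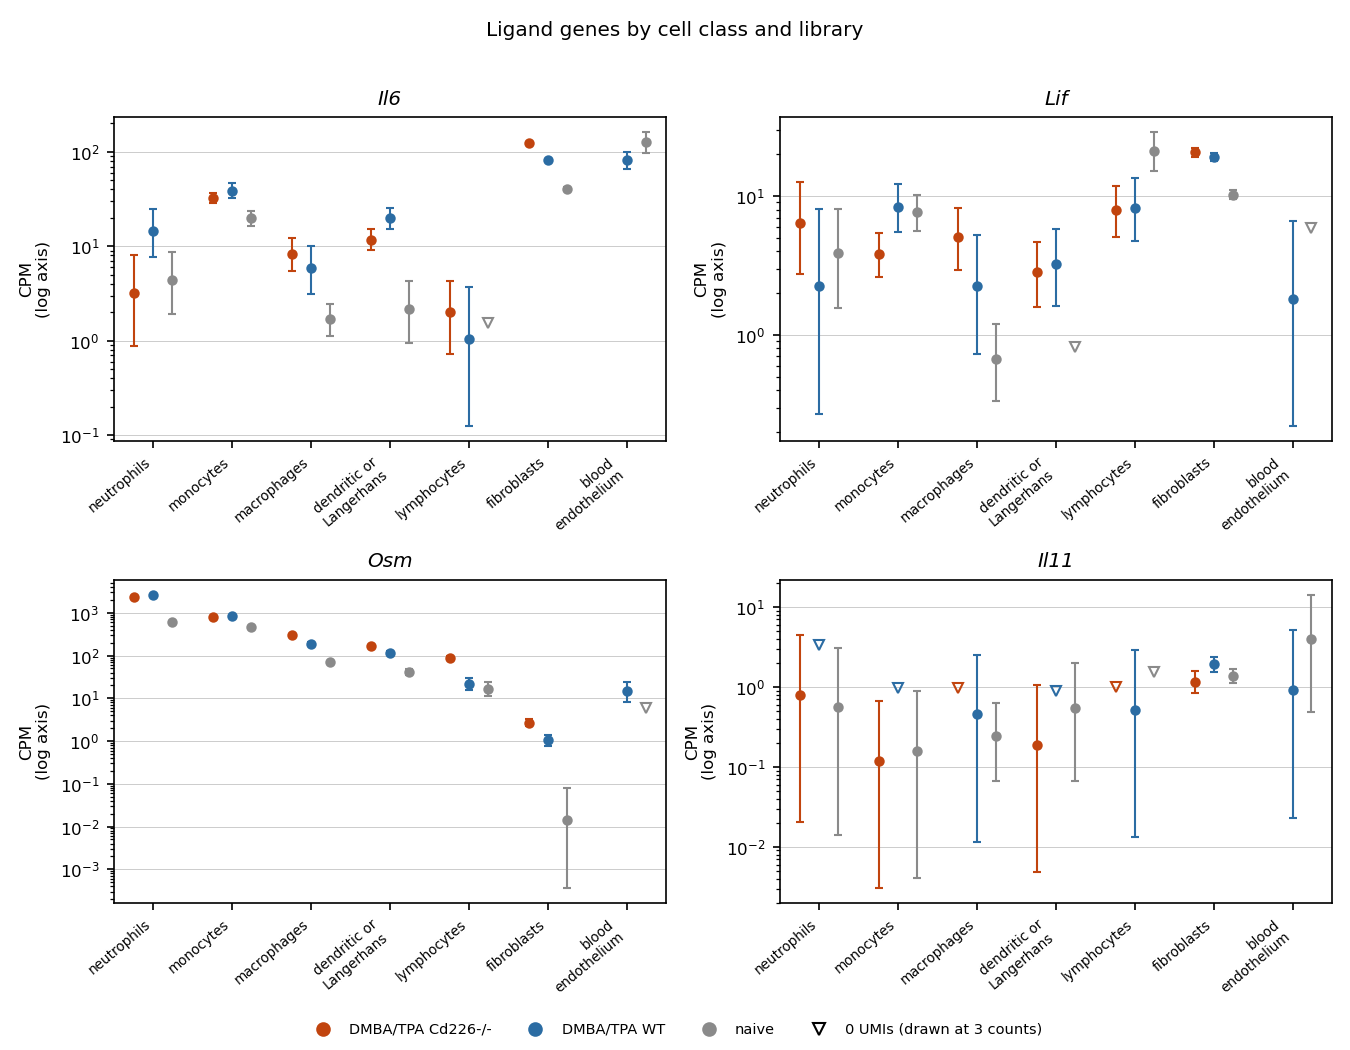
Levels of the 4 ligand genes, in CPM on a log axis, in leukocyte classes, fibroblasts and blood endothelium with at least 100 cells. Keratinocytes, of which the WT library held 213, are not drawn. Points are libraries, bars are exact 95% counting intervals, open triangles mark 0 UMIs drawn at 3 counts, and naive means CD45+ for leukocytes and CD45- for fibroblasts and endothelium. Osm steps down from neutrophils to fibroblasts, while Il6 and Lif in treated skin are highest in fibroblasts or blood endothelium.

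Treated and naive fibroblasts lie in different clusters. Clusters 2, 3, 5, 12 and 18 held 95.3% of Cd226-/-, 91.3% of WT and 2.68% of naive fibroblasts, and clusters 4, 14, 19, 20, 26 and 31 held 2.79%, 6.51% and 96.5%. A treated over naive ratio in this class therefore compares different fibroblast populations. In cluster 2, led by Col1a2, Col1a1, Postn, Cxcl13 and Ptx3, Il6 stood at 294 CPM in Cd226-/- and 119 in WT cells, and its UMIs were in 59.2% and 36.3% of the cells. In cluster 18, led by Tnc, Mfap4 and Grem1, it stood at 142 in Cd226-/- and 64.2 in WT cells, and in cluster 5, led by Cxcl14, Gpx3, Cilp and Myoc, at 50 in Cd226-/- and 24.2 in WT cells. The Cd226-/- over WT ratios were 2.46, 2.21 and 2.07 in these clusters, but 1.37 in cluster 3 and 1.18 in cluster 12. The interval in cluster 12, 0.987 to 1.42, includes 1, so a higher Il6 level in Cd226-/- cells was seen in 4 of these 5 clusters and not resolved in that one. When the clusters were weighted equally (an alternative chosen after seeing the data) the ratio was 1.79. The few fibroblasts that share a cluster across treatment did not all follow the class ratio. In cluster 4 Il6 stood at 30.8 CPM in 157 WT cells and 62.4 in 979 naive cells, and in cluster 19 at 94.8 in 40 WT cells and 107 in 921 naive cells. In cluster 5 the 158 naive cells held 7.31 CPM, from 6 UMIs.

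Il6 was lower or sparse in the leukocyte classes of at least 100 cells. Monocytes held 32.3 CPM in Cd226-/-, 38.7 in WT and 19.9 in naive skin, with UMIs in 6.92%, 7.45% and 4.84% of cells. Dendritic or Langerhans cells held 11.8 in Cd226-/-, 19.9 in WT and 2.19 in naive skin, so that Cd226-/- stood 5.38-fold [2.57–13] and WT 9.06-fold [4.34–21.8] over naive on only 8 naive UMIs. Over the alternatives these ratios ran from 2.05 to 23.2 in Cd226-/- and from 5.95 to 43.6 in WT, so their size is not settled. Here Cd226-/- stood at 0.594 [0.413–0.851] of WT, and most UMIs came from cluster 11, led by Cd74, H2-Aa and Ccl22, with 15.5 CPM in Cd226-/- and 23.8 in WT cells. This ratio was 0.283 after thinning and 0.67 when libraries were clustered separately. Fibroblast markers summed to 291 CPM in Cd226-/-, 3120 in WT and 230 in naive cells of this class, with 7 of 7 markers seen in each, and their part in the Il6 difference was not tested. In blood endothelium Il6 stood at 82.1 [66.0–101] in 177 WT cells and 127 [97.5–162] in 146 naive cells, and at 59.4 in 59 Cd226-/- cells, too few for a ratio. WT fibroblasts and WT blood endothelium did not differ beyond counting error. In naive skin the endothelial level stood above that of fibroblasts, which was 40.5 CPM. The endothelial WT over naive ratio of 0.648 [0.465–0.907] was 0.885 without the richest cell of each library, 1.10 with doublets kept, 1.53 after thinning and 4.53 when libraries were clustered separately, so it has no settled direction. Fibroblast markers summed to 4193 CPM in WT and 28130 in naive blood endothelium. Mast cells or basophils held Il6 at 485 CPM in 52 Cd226-/- cells (76 UMIs, 31 of them in 1 cell) and 215 in 21 WT cells (16 UMIs).

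Lif, a ligand best known for holding mouse embryonic stem cells in their undifferentiated state, was also mainly a fibroblast transcript. It stood at 20.6 CPM in Cd226-/-, 19.1 in WT and 10.3 in naive fibroblasts. Fibroblasts held 84.2% of Lif UMIs in the Cd226-/- and 89.6% in the WT library. Cd226-/- and WT fibroblasts were close, with a ratio of 1.08, and stood 2.01-fold [1.81–2.23] and 1.86-fold [1.68–2.05] over naive; for WT the thinned ratio was 1.33. The clusters differed more than the class did. Cluster 2 held 51.3 CPM in Cd226-/- and 21.6 in WT cells, a ratio of 2.37, and cluster 18 held 75.6 and 66.2, a ratio of 1.14. Cluster 3 held 14.1 and 7.27, a ratio of 1.94 [1.36–2.82], and cluster 12 held 2.55 and 3.27. Of 2756 Cd226-/- fibroblasts 502 lay in cluster 2 and 71 in cluster 18, and of 4058 WT ones 1398 and 376. The class ratio therefore compares different mixtures of clusters. Among naive clusters, number 14 had the highest Lif level of those with at least 1000 cells, at 17.5 CPM, while its Il6 level was 6.56 and so the lowest. Among these large clusters Lif and Il6 thus did not peak in the same cells. Naive clusters 4 and 19, whose Il6 levels are given above, lie just under this number of cells, and their Lif levels are not printed here.

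In monocytes Lif was lower in Cd226-/- skin, at 3.81 CPM (32 UMIs), against 8.39 in WT (26 UMIs) and 7.63 in naive skin (48 UMIs). That is 2.20-fold lower than WT, a ratio of 0.454 [0.262–0.794] that stayed past 1.5-fold in all 7 alternative analyses that gave a value. Fibroblast markers in monocytes summed to 438 CPM in Cd226-/-, 1379 in WT and 43.7 in naive skin, with 7 of 7 seen in each, and their part in this difference was not tested. Over all monocytes and macrophages Lif stood 1.60-fold over naive in Cd226-/- and 2.25-fold in WT skin, but the Cd226-/- ratio was 0.893 and the WT ratio 1.40 after thinning. That pool differs in mixture, with monocytes 1127 of 1522 Cd226-/-, 470 of 808 WT and 517 of 2038 naive cells. In monocytes alone, at the levels above, neither treated library stood 1.5-fold over naive. The part of the mixture in the pooled ratios was not tested. Lymphocytes had their highest Lif level in naive skin, with 7.97 CPM in Cd226-/- (24 UMIs), 8.26 in WT (16 UMIs) and 21.3 in naive skin (41 UMIs). Nearly all of it lay in cluster 8, led by Il17a, Il17f, Il22, Areg and Trdc, at 18 CPM in Cd226-/-, 21 in WT and 38.0 in naive cells. The class ratios over naive were 0.374 in Cd226-/- and 0.388 in WT skin. When libraries were clustered separately they were 1.99 and 1.85, so which cells are called lymphocytes sets the direction.

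Il11, a ligand known for fibroblast activation and fibrosis, was sparse. Fibroblasts held 1.16 CPM in Cd226-/- (43 UMIs), 1.92 in WT (87 UMIs) and 1.37 in naive skin (97 UMIs). Cd226-/- thus stood 1.65-fold lower than WT, at a ratio of 0.605 [0.410–0.881], which was 0.327 after thinning. Il11 was detected in 1.52% of fibroblasts from Cd226-/-, 1.82% from WT and 0.915% from naive skin, and no leukocyte class held more than 4 UMIs in a library. Its treated over naive ratios, 0.851 in Cd226-/- and 1.41 in WT fibroblasts, were not past 1.5-fold. Genes whose pattern over the 22 pairs of class and library was most like that of a ligand were Ccr1 (Pearson r 0.98), Lilr4b (0.98) and Clec4e (0.97) for Osm, Papss2 (0.87), Thbd (0.85) and Ly6c1 (0.84) for Il6, and Hsd11b1 (0.79), Rhou (0.78) and S100a6 (0.77) for Lif. For Il11 they were Hdx (0.89), C530044C16Rik (0.88) and Tusc5 (0.88). These are descriptions over pairs that share libraries and depth, with 15258 genes compared.

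Among receptor chains, Osmr set fibroblasts and blood endothelium apart from leukocytes. It stood at 114 [111–118] CPM in Cd226-/-, 92.0 [89.3–94.9] in WT and 14.6 [13.7–15.5] in naive fibroblasts. That is 7.84-fold [7.32–8.40] over naive in Cd226-/- and 6.31-fold [5.90–6.76] in WT skin, and over all alternatives these ratios ran from 6.95 to 7.99 and from 5.47 to 6.46. Osmr was detected in 65.7% of fibroblasts from Cd226-/-, 52.7% from WT and 8.72% from naive skin, and in 10.6%, 8.26% and 1.57% after thinning to 1000 UMIs. Every leukocyte class of at least 100 cells held at most 2.71 CPM in any library. Osmr was therefore high in fibroblasts, where Osm was at 2.71 CPM or less, and near 0 in the leukocytes, where Osm was higher. In fibroblasts the Cd226-/- over WT ratio was 1.24, and it lay between 1.15 and 1.39 in clusters 2, 3, 5, 12 and 18. Osmr was also higher in treated cells within 3 of the clusters that hold cells of both kinds: in cluster 4 it stood at 49.1 CPM in WT and 27.3 in naive cells, in cluster 5 at 114 in Cd226-/-, 94.2 in WT and 30.5 in naive cells, and in cluster 12 at 96.3, 75.7 and 26.6. In cluster 19 it was hardly apart, at 49.4 in 40 WT cells and 44.4 in naive cells. Blood endothelium held 138 [117–161] in WT and 105 [78.6–137] in naive skin, a ratio of 1.31 [0.954–1.83] whose interval includes 1, and 83.7 in 59 Cd226-/- cells. A higher Osmr level than in naive skin was thus seen in fibroblasts and not resolved in blood endothelium.

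**Figure D2:**
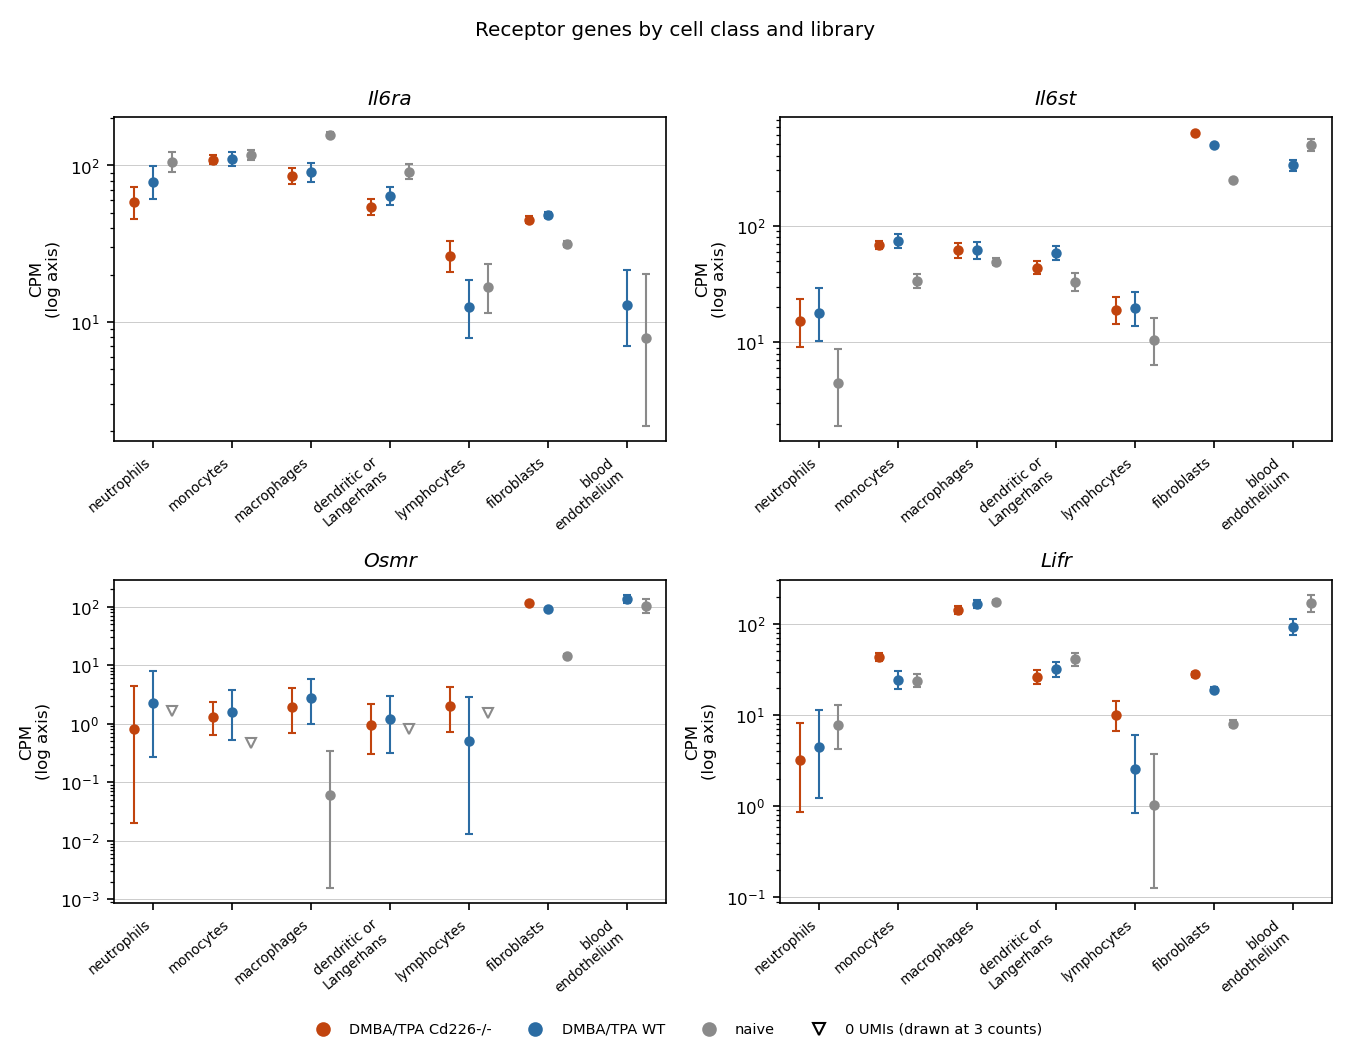
Levels of the 4 receptor genes, in CPM on a log axis, by cell class and library. Points are libraries, bars are exact 95% counting intervals, and open triangles mark 0 UMIs drawn at 3 counts. Osmr is at 92.0 or above in treated fibroblasts and in WT and naive blood endothelium but at most 2.71 in leukocytes, and Il6ra is highest in monocytes and macrophages.

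Il6st, the shared gp130 chain, was found in every class, and within each treated library it was higher in fibroblasts than in blood endothelium or any leukocyte class named here. It stood at 626 CPM in Cd226-/-, 489 in WT and 245 in naive fibroblasts, 2.55-fold and 1.99-fold over naive, and the Cd226-/- over WT ratio was 1.28. Blood endothelium held 329 in 177 WT cells and 493 in 146 naive cells, a ratio of 0.668. In monocytes it stood at 68.1 in Cd226-/-, 74.3 in WT and 33.7 in naive skin, and in macrophages at 61.5, 61.5 and 49.2. Dendritic or Langerhans cells held 43.7 in Cd226-/-, 58.4 in WT and 33.1 in naive skin. Lymphocytes held 18.9, 19.6 and 10.4 on 57, 38 and 20 UMIs, and neutrophils 15.2, 17.9 and 4.45 on 19, 16 and 8 UMIs. In each of these leukocyte classes both treated libraries stood above naive. The lymphocyte ratios over naive, 1.82 in Cd226-/- and 1.89 in WT skin, were not past 1.5-fold with doublets kept. Cluster 0 held 36.3% of Cd226-/-, 24.0% of WT and 87.7% of naive dendritic or Langerhans cells. Within cluster 0 Il6st stood at 25.5 in Cd226-/- and 35.2 in WT cells, and within cluster 11 at 52.1 and 63.4. The part of this mixture in the class difference was not tested. Cells with UMIs of both Osmr and Il6st, at 1000 UMIs per cell, were 4.72% of Cd226-/- (130 cells), 3.18% of WT (129 cells) and 0.423% of naive fibroblasts (43 cells). Unthinned these shares were 64.3%, 49.6% and 6.98%, and no leukocyte class held more than 1 such cell per library after thinning. Among 213 WT keratinocytes the share was 0% after thinning and 9.39% unthinned.

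Il6ra, the IL-6-specific chain, showed the reverse arrangement and was highest in phagocytes. Monocytes held 109 CPM in Cd226-/-, 110 in WT and 116 in naive skin. Macrophages held 85.7 in Cd226-/-, 90.4 in WT and 157 in naive skin, and together the phagocytes stood at 0.705 of the naive level in Cd226-/- and 0.699 in WT skin. In dendritic or Langerhans cells Il6ra stood at 54.2 in Cd226-/-, 63.7 in WT and 91.5 in naive skin, and in neutrophils at 58.3, 78.3 and 106. Monocytes were close to naive, while macrophages, dendritic or Langerhans cells and neutrophils stood lower in both treated libraries; the Cd226-/- neutrophil ratio of 0.553 was 0.715 with libraries clustered separately. Fibroblasts went the other way, with 45.1 in Cd226-/-, 48.2 in WT and 31.4 in naive skin, which is 1.44-fold and 1.53-fold over naive; the WT value was 1.36 when scaled to the median gene. The fibroblast ratio of Cd226-/- over WT was 0.936, and between 0.70 and 0.91 in clusters 2, 3, 5, 12 and 18. Lymphocytes held 26.2 in Cd226-/- (79 UMIs), 12.4 in WT (24 UMIs) and 16.6 in naive skin (32 UMIs). That Cd226-/- over WT ratio of 2.12 [1.33–3.5] was 1.08 without cluster 22, 0.901 after thinning and 6.54 with family genes among the clustering genes. The Cd226-/- over naive ratio of 1.58 in lymphocytes was 0.599 after thinning and 0.709 with libraries clustered separately, so its direction is not settled. Cells with UMIs of both Il6ra and Il6st, at 1000 UMIs per cell, were 1.74% of Cd226-/-, 1.68% of WT and 0.748% of naive fibroblasts, and 0.591%, 0.866% and 0.785% of monocytes and macrophages.

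Lifr, the chain that LIF uses with gp130, was highest in macrophages, at 142 CPM in Cd226-/-, 165 in WT and 176 in naive skin. The macrophage clusters differed from naive in opposite directions. In cluster 21, led by Cd74, H2-Aa and C1qa, Lifr stood at 124 in Cd226-/-, 153 in WT and 81.4 in naive cells, and in cluster 23, led by C1qa, Ccl8, Pf4 and Mrc1, at 187, 241 and 290. Over monocytes and macrophages together Lifr stood at 0.525 of naive in Cd226-/- and 0.620 in WT skin, and at 0.673 and 0.781 with finer clusters. Monocytes, the part with less Lifr, were 1127 of 1522 Cd226-/-, 470 of 808 WT and 517 of 2038 naive cells of that pool. In monocytes alone Lifr stood at 43.4 in Cd226-/-, 24.5 in WT and 23.8 in naive skin, a Cd226-/- over WT ratio of 1.77 [1.38–2.30] that was 1.70 within cluster 9 and ran from 1.54 to 1.97 over the alternatives. Lifr in fibroblasts stood at 28.1 in Cd226-/-, 19 in WT and 8.05 in naive skin, 3.49-fold and 2.36-fold over naive, with a Cd226-/- over WT ratio of 1.48. Dendritic or Langerhans cells held 26.2, 32.0 and 41.4 in Cd226-/-, WT and naive skin, but the Cd226-/- over naive ratio of 0.634 was 1.15 under a stricter cell filter and 2.26 after thinning. Blood endothelium held 93.0 in WT and 170 in naive skin, a ratio of 0.546 that was 0.909 with libraries clustered separately. Lymphocytes held 30 Lifr UMIs in Cd226-/-, 5 in WT and 2 in naive skin, and 25 of the 30 lay in cluster 22.

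**Figure D3:**
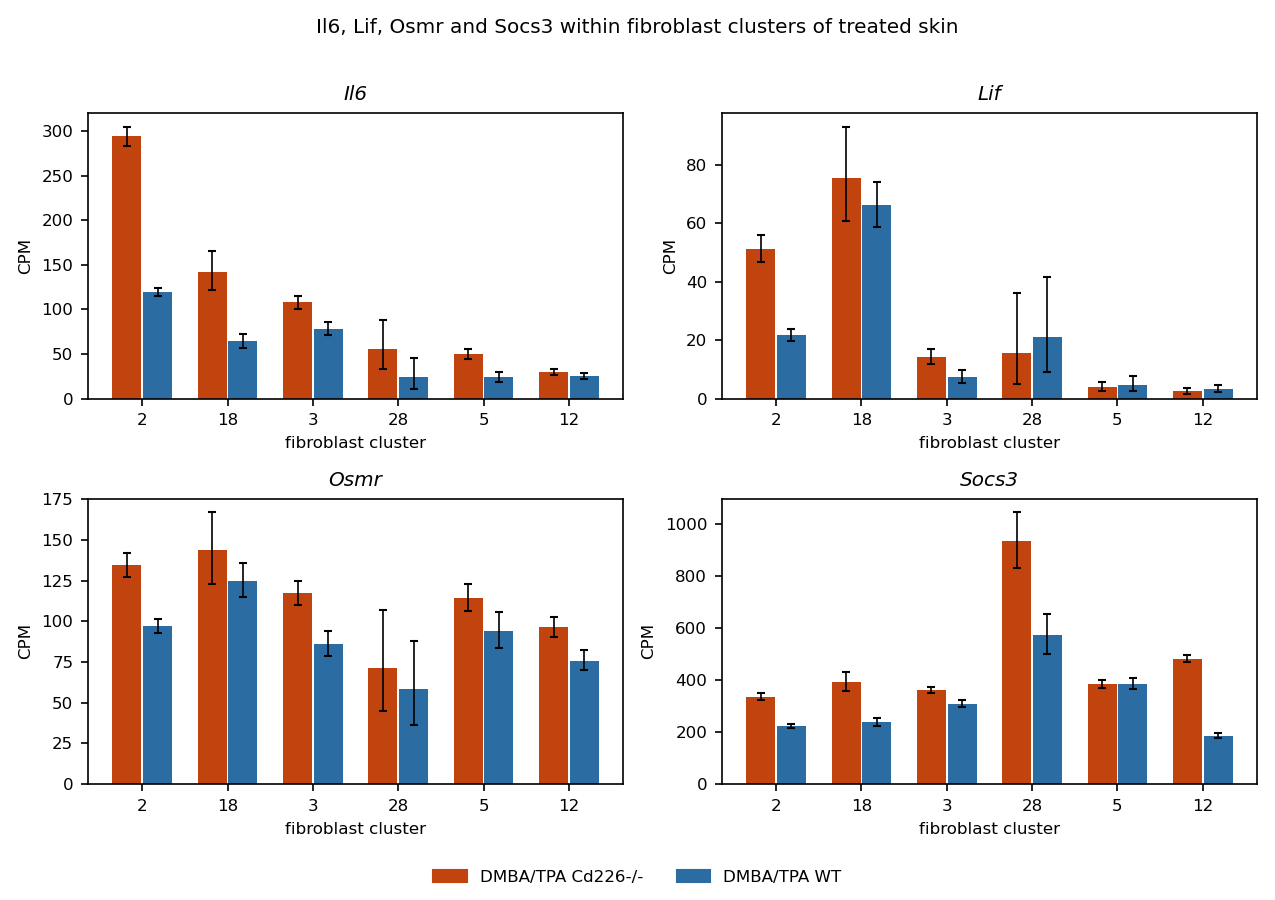
Levels of Il6, Lif, Osmr and Socs3 in 6 fibroblast clusters, in CPM, for Cd226-/- and WT cells of treated skin. Clusters with at least 50 cells in both libraries are ordered by the Cd226-/- Il6 level, bars are levels and whiskers are exact 95% counting intervals. Il6 in cluster 2 stands at 294 in Cd226-/- and 119 in WT cells, while Osmr differs by 1.15-fold to 1.39-fold across clusters 2, 3, 5, 12 and 18.

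Socs3, the feedback gene, is a member whose treated over naive direction differed between leukocytes and fibroblasts. In fibroblasts it stood at 396 [389–402] CPM in Cd226-/-, 251 [247–256] in WT and 486 [481–492] in naive skin. It was thus lower than naive in both treated libraries, by 1.23-fold in Cd226-/- and 1.94-fold in WT skin, although Il6, Osmr and Il6st were all higher there. The early response genes Fos and Zfp36 were lower in treated fibroblasts as well, Fos at 2393 in Cd226-/-, 2892 in WT and 4311 in naive skin and Zfp36 at 1026, 1283 and 1827. Between genotypes the fibroblast ratio of Socs3, Cd226-/- over WT, was 1.58 [1.54–1.61], and over all alternatives it ran from 1.52 to 1.61. It was 2.58 in cluster 12 (481 in Cd226-/- and 186 in WT cells), led by Cxcl13, Plpp3, Serping1 and Lbp, 1.64 in cluster 18 and 1.5 in cluster 2, but 1.17 in cluster 3 and 0.997 in cluster 5. The genotype difference in Socs3 was thus unevenly placed, and not largest in the cluster where that of Il6 was largest. The small cluster 28, led by Apod, Dcn and Col15a1, held 935 in 52 Cd226-/-, 574 in 89 WT and 896 in 85 naive cells. Naive clusters were far apart, from 159 in cluster 14 to 940 in cluster 19.

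Leukocytes went the other way. Neutrophils held Socs3 at 716 CPM in Cd226-/-, 783 in WT and 358 in naive skin, 2.00-fold and 2.19-fold over naive. Monocytes held 675 in Cd226-/-, 732 in WT and 234 in naive skin, and within cluster 9 678, 742 and 353. Dendritic or Langerhans cells held 514, 511 and 227 in Cd226-/-, WT and naive skin. In these 3 classes the genotypes were close and both above naive. Macrophages held 331 in Cd226-/-, 432 in WT and 397 in naive skin, so their Cd226-/- level was the lowest, with a ratio over WT of 0.767. Lymphocytes held 193 in Cd226-/-, 95.5 in WT and 33.8 in naive skin, 5.72-fold and 2.83-fold over naive, with ranges of 2.89 to 10.6 and 1.66 to 5.04 over the alternatives. The Cd226-/- over WT ratio of 2.02 [1.71–2.40] was 1.26 without cluster 22, where Socs3 stood at 388 in Cd226-/- and 274 in WT cells. Blood endothelium held 270 in WT and 485 in naive skin, a ratio of 0.557 that was 1.27 with libraries clustered separately.

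**Figure D4:**
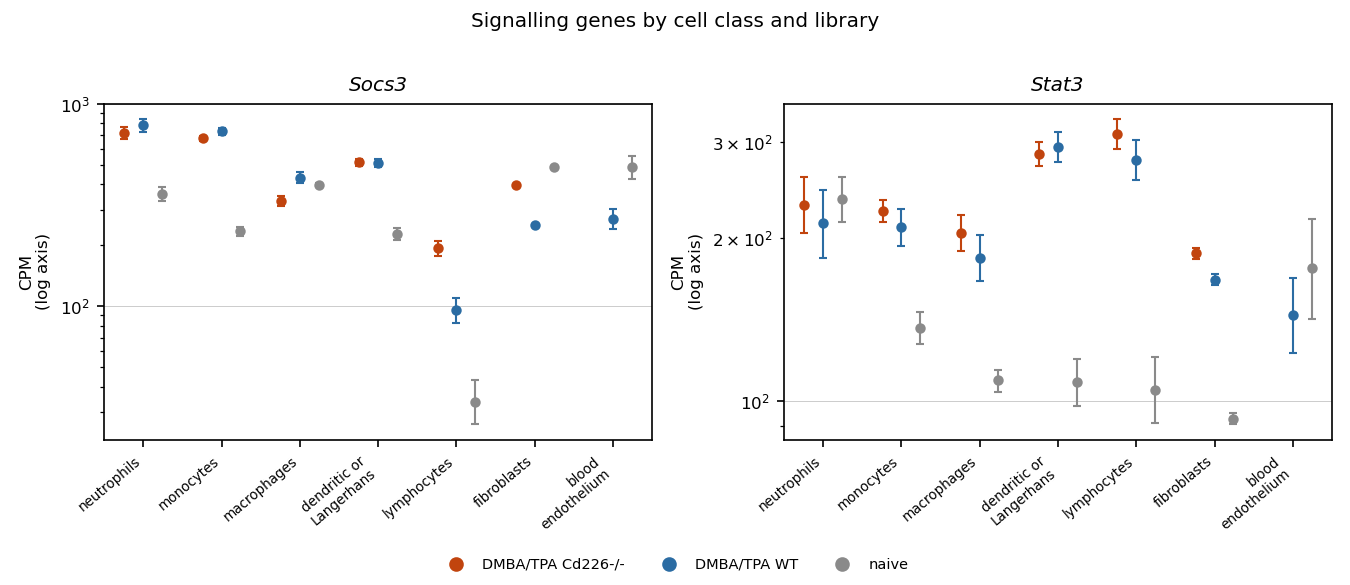
Levels of Socs3 and Stat3, in CPM on log axes, by cell class and library. Points are libraries and bars are exact 95% counting intervals. Socs3 is above naive in treated neutrophils, monocytes, dendritic or Langerhans cells and lymphocytes and below naive in treated fibroblasts, and Stat3 is above naive in treated cells of all classes drawn but neutrophils and blood endothelium.

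Stat3, the transcription factor of the pathway, was higher than naive in both treated libraries in most classes. Fibroblasts held 187 CPM in Cd226-/-, 167 in WT and 92.8 in naive skin, 2.02-fold and 1.80-fold over naive. Lymphocytes held 311 in Cd226-/-, 278 in WT and 105 in naive skin, and dendritic or Langerhans cells 286, 294 and 108. The latter class differed in mixture, since cluster 0 held 36.3% of its Cd226-/-, 24.0% of its WT and 87.7% of its naive cells. Within cluster 0 Stat3 stood at 108 in Cd226-/- and 122 in WT cells, and within cluster 11 at 367 and 331. The part of this mixture in the class difference was not tested. Monocytes held 224, 209 and 137, and macrophages 204, 184 and 109, in Cd226-/-, WT and naive skin. Neutrophils were the exception, with 230 in Cd226-/-, 213 in WT and 236 in naive skin and ratios of 0.977 and 0.902. No class had a Stat3 ratio of Cd226-/- over WT past 1.5-fold.

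Counted over classes, 11 of 40 ratios of Cd226-/- over WT were past 1.5-fold. In fibroblasts 4 of 10 members were called (Il6, Osm and Socs3 higher and Il11 lower), where 12.5% of all genes tested were. In lymphocytes 3 of 5 were called, all higher, against 13.9% of all genes, and these are the ratios tied to cluster 22. In monocytes 2 of 8 were called against 9.54%, Lifr higher and Lif lower. In macrophages 1 of 6 was called against 8.93%, in dendritic or Langerhans cells 1 of 7 against 10.6%, in neutrophils 0 of 4 against 16.6%, and in the pool of monocytes and macrophages 0 of 8 against 9.85%. Outside fibroblasts, lymphocytes and monocytes at most 1 member was called in a class, which is no result about the family. The counts in those classes rest on few genes too. Of the fibroblast calls, Socs3 was kept in 9 of 9 alternatives, Il11 in 8 of 8, Osm in 7 of 8 and Il6 in 5 of 9.

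Against naive skin more was called, in members and in all genes. In fibroblasts 7 of 10 members were called in Cd226-/- skin, all higher, against 38.3% of all genes, and 8 of 9 in WT skin, 7 higher and Socs3 lower, against 31.9%. In the pool of monocytes and macrophages 6 of 8 were called in Cd226-/- skin against 34.1% and 7 of 8 in WT skin against 27.5%, with Lifr the lower one in each. Of this pool 1127 of 1522 Cd226-/-, 470 of 808 WT and 517 of 2038 naive cells were monocytes. Its counts, for members and all genes alike, thus compare different mixtures of cells, whose part was not tested. In dendritic or Langerhans cells 6 of 7 were called in Cd226-/- skin against 29.5% and 5 of 7 in WT skin against 33.7%. In lymphocytes the counts were 6 of 6 against 28.0% in Cd226-/- skin and 4 of 6 against 26.0% in WT skin, with Lif lower in each. In neutrophils they were 3 of 4 against 39.4% in Cd226-/- skin and 2 of 4 against 45.1% in WT skin, the second of these near the background. In blood endothelium 3 of 6 were called in WT skin, all lower, against 23.3%. The median gene stood at a log2 ratio of 0.17 in Cd226-/- and 0.18 in WT fibroblasts over naive, and at -0.14 and -0.10 in the pool of monocytes and macrophages.

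**Figure D5:**
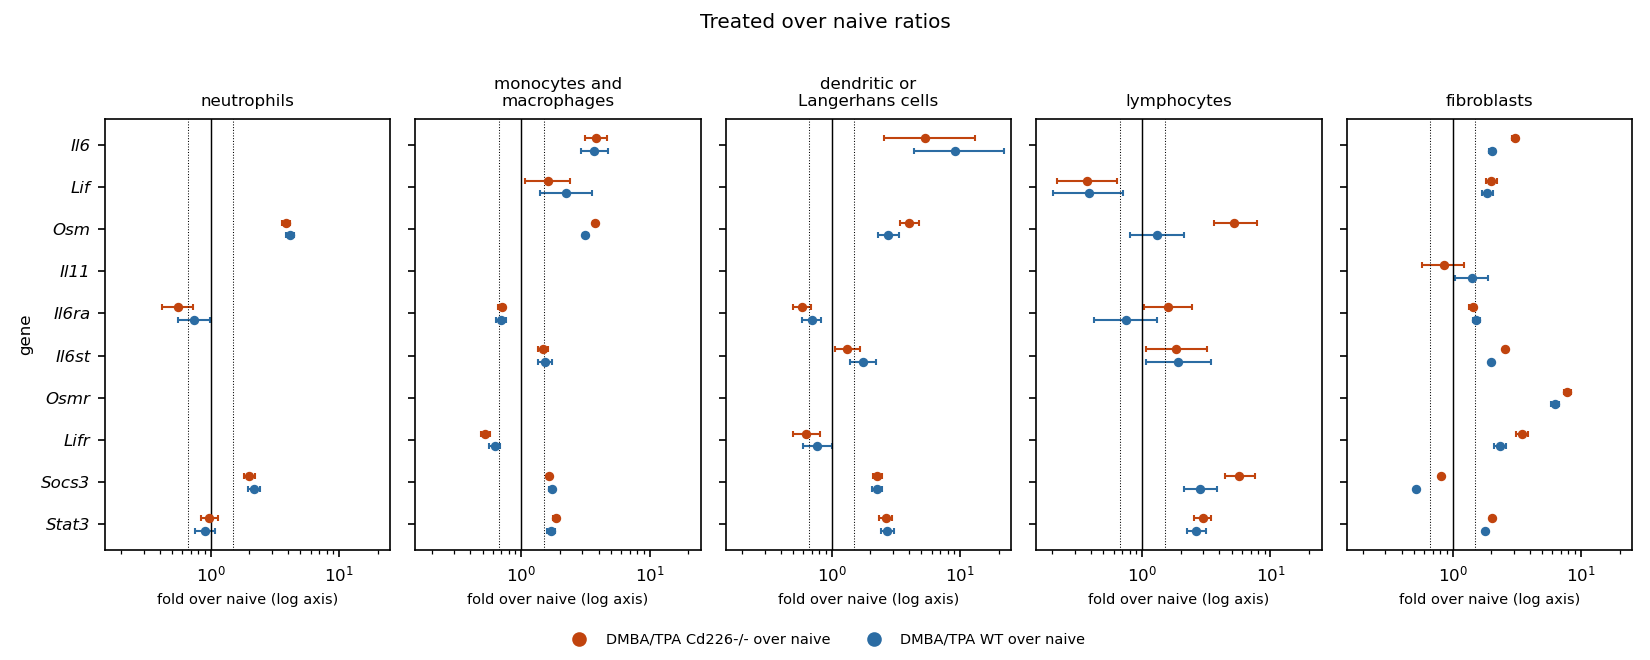
Ratios of Cd226-/- and WT skin over naive skin for members with at least 50 UMIs over the libraries compared, on a log axis, in 5 classes. Points are ratios, bars are exact 95% counting intervals, the solid line is equality and the dotted lines are 1.5-fold either way. Osm in fibroblasts, with 1 UMI in naive cells, is left out. Osmr in fibroblasts is the highest ratio that rests on over 1000 UMIs in each library, at 7.84 in Cd226-/- and 6.31 in WT skin.

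A list of 48 other genes of the pathway (further ligands and receptors, JAK and STAT genes, feedback genes and known STAT3 targets) was read beside the members. In fibroblasts 43 of them were tested between genotypes, and 11 were higher and 4 lower in Cd226-/- than in WT skin past 1.5-fold. Of all genes tested 12.5% were called. The median log2 ratio of the list was 0.04, against 0.02 for all genes. The acute-phase gene Saa3 stood at 2857 CPM in Cd226-/- and 1078 in WT fibroblasts, a ratio of 2.65. Haptoglobin (Hp) stood at 128 and 63.0, and the feedback gene Socs2 at 22.5 and 11.9. Vegfa, the vascular growth factor, was lower, at 45.7 in Cd226-/- and 76.8 in WT fibroblasts, as was the IL-31 receptor chain Il31ra, at 15.8 and 24.0. Over naive skin, 22 of 42 tested were higher and 5 lower in Cd226-/- fibroblasts, with a median log2 ratio of 0.76 against 0.17 for all genes, and 19 were higher and 1 lower in WT fibroblasts, with 0.50 against 0.18. Of all genes, 38.3% were called in Cd226-/- and 31.9% in WT fibroblasts over naive. Lcn2, an antimicrobial lipocalin, stood at 134 in Cd226-/-, 85.5 in WT and 0.21 in naive fibroblasts, and the protease inhibitor Timp1 at 968, 897 and 38.4. Lcn2 and Timp1 were thus higher in both treated libraries than in naive skin, and of these only Lcn2 was also past 1.5-fold between the genotypes.

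In lymphocytes 9 of 36 list genes were higher in Cd226-/- than in WT skin and none lower past 1.5-fold, against 13.9% of all genes called, of which 811 were higher and 209 lower, so the list leaned the way all genes did. They were led by Il1rn (33.5 in Cd226-/- and 1.55 in WT from 3 UMIs, a ratio of 21.7 [7.20–107]) and Saa3 (147 and 14.5), genes better known from myeloid and stromal cells. In monocytes, where 9.54% of all genes were called, 1 of 40 was higher (Saa3, at 883 in Cd226-/- and 559 in WT skin) and 5 were lower, among them the feedback gene Cish (5.96 and 19.7) and the IL-11 receptor chain Il11ra1 (8.58 and 19.7). In macrophages 4 of 38 were higher and 3 lower, against 8.93% of all genes called, with Saa3 at 667 in Cd226-/- and 334 in WT skin. Fibroblast markers summed to 438 CPM in Cd226-/- and 1379 in WT monocytes, and to 613 and 1619 in macrophages. Their part in these list genes was not tested. In dendritic or Langerhans cells 0 of 38 were higher and 5 lower, which is near the 10.6% of all genes called (221 higher and 675 lower). They were led by Serpina3n (6.09 in Cd226-/- and 67.3 in WT), which also leads fibroblast cluster 3, in the class where fibroblast markers differed as well. In neutrophils 1 of 29 was higher and 2 lower, below the 16.6% of all genes. Over naive skin, the pool of monocytes and macrophages had 17 of 41 list genes higher and 6 lower in Cd226-/- skin and 19 of 41 higher and 3 lower in WT skin, with median log2 ratios of 0.43 and 0.42 against -0.14 and -0.10 for all genes. Of all genes in that pool, 34.1% were called in Cd226-/- and 27.5% in WT skin. Its mixture of monocytes and macrophages differed between treated and naive skin, and the part of that in these counts was not tested.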

How the data were processed

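The authors deposited raw UMI counts for each called cell over 31053 genes and 2 antibody tags, for CD45 and DNAM-1. Cell Ranger 3.1.0 and the build mm10 are named in the submitters' processing notes. The 4 libraries, Cd226-/-, WT, naive CD45- and naive CD45+, held 7991, 8527, 11875 and 5913 barcodes and 71245703, 72606822, 81406730 and 42043869 gene UMIs. From these counts, cells were kept from 500 genes and 1000 UMIs upward if mitochondrial UMIs made up 10% or less. Doublets called by Scrublet (expected rate 0.06) were left out, 161, 170, 602 and 178 cells; in naive CD45+ the caller marked 0.256%, so the highest 5% of scores were removed there. Counts scaled to 10000 per cell, 2000 variable genes without the members and the pathway list, 30 principal components, 15 neighbours and Leiden resolution 1.0 gave 32 clusters, and 55 after mixed ones were split (scanpy 1.11.5, anndata 0.12.19, scikit-learn 1.9.0, igraph 0.11.9, numpy 2.4.6, scipy 1.17.1, pandas 2.3.3, Python 3.11.15; figures with matplotlib 3.10.9).

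Clusters with Ptprc in at least 40% of cells are immune. A cluster took the name of the marker list with the highest score if that was at least 3, with 3 markers seen in 10% of cells; mixed clusters (scores under 2.5 apart) were split or left unnamed. Unnamed cells were 6.45% of Cd226-/-, 7.57% of WT and 0.976% of naive CD45+ immune cells, and 11.3% of Cd226-/-, 10.0% of WT and 0.219% of naive CD45- non-immune cells. UMIs were summed per class and library. Levels have exact Poisson intervals, ratios exact conditional binomial intervals and shares exact binomial (Clopper-Pearson) intervals. Ratios need at least 100 cells in both libraries; 0 counts are set to 3. For each ligand the 3 genes with the highest Pearson correlation of log2(level + 1) over pairs of class and library are named. For the pathway list the rule takes the 3 highest and 3 lowest ratios by the interval bound nearest to equality, of which a selection is printed. The calculation was tested on simulated data. The members, marker lists and pathway list were chosen with earlier results of these data known. Alternatives were another scaling, a stricter cell filter (1000 genes, 2000 UMIs, 5% mitochondrial), doublets kept, finer clusters (resolution 2.0), the family genes among the clustering genes, libraries clustered separately, the richest cell left out, thinning to 1000 UMIs, and a minimum of 20 UMIs.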

Additional observations from a re-analysis of the deposited data

Results flagged for a closer look

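For 4 members the treated over naive ratios went one way in one class and the other way in another, in both treated libraries, which set them apart for a closer look. The difference between the classes was not tested. Lif stood higher than naive in fibroblasts, 2.01-fold in Cd226-/- and 1.86-fold in WT skin, and lower in lymphocytes, by 2.67-fold in Cd226-/- and 2.58-fold in WT skin. The lymphocyte direction is not settled: with libraries clustered separately the ratios were 1.99 in Cd226-/- and 1.85 in WT skin, and the WT ratio was 1.97 with family genes among the clustering genes. Il6ra stood higher in fibroblasts, 1.44-fold in Cd226-/- and 1.53-fold in WT skin, and lower in neutrophils, by 1.81-fold in Cd226-/- and 1.35-fold in WT skin. Lifr stood higher in fibroblasts, 3.49-fold in Cd226-/- and 2.36-fold in WT skin, and lower in the pool of monocytes and macrophages, by 1.90-fold in Cd226-/- and 1.61-fold in WT skin. Monocytes, which carry less Lifr, were 1127 of 1522 Cd226-/-, 470 of 808 WT and 517 of 2038 naive cells of that pool, and in monocytes alone Lifr stood at 43.4 CPM in Cd226-/-, 24.5 in WT and 23.8 in naive skin. In macrophage cluster 21 it was also higher than naive, so the pooled direction does not hold in each of its parts. Socs3 stood higher in lymphocytes, 5.72-fold in Cd226-/- and 2.83-fold in WT skin, and lower in fibroblasts, by 1.23-fold in Cd226-/- and 1.94-fold in WT skin. Fibroblasts and leukocytes are set against different naive libraries, and the naive and treated fibroblasts lie largely in different clusters. Macrophages and neutrophils share theirs across treatment, and lymphocytes share cluster 8 with 53.0% of Cd226-/-, 43.0% of WT and 58.0% of naive cells of the class.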

How the results depend on the processing

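Of 68 called ratios, 41 were past 1.5-fold in the same direction in every alternative that gave a value, and these include the fibroblast ratios over naive of Il6, Il6st, Osmr, Lifr and Stat3. These directions turned. Under thinning to 1000 UMIs they were Il6ra Cd226-/- over WT in lymphocytes (0.901), and over naive Lif in Cd226-/- monocytes and macrophages (0.893), Lifr in Cd226-/- dendritic or Langerhans cells (2.26), Il6ra in Cd226-/- lymphocytes (0.599) and Il6 in WT blood endothelium (1.53). With libraries clustered separately they were, over naive, Lif in Cd226-/- (1.99) and WT lymphocytes (1.85), Il6ra in Cd226-/- lymphocytes (0.709), and Il6 (4.53) and Socs3 (1.27) in WT blood endothelium. The stricter cell filter turned Lifr in Cd226-/- dendritic or Langerhans cells (1.15), family genes among the clustering genes turned Lif in WT lymphocytes (1.97), and doublets kept turned Il6 in WT blood endothelium (1.10). The cause was not tested. The 11 of 40 ratios called between genotypes became 6 of 32 with libraries clustered separately. Over naive, 28 of 35 in Cd226-/- became 18 of 27 with libraries clustered separately and 16 of 24 under the stricter filter, and 29 of 40 in WT became 19 of 24 under the stricter filter. That filter left under 100 neutrophils, lymphocytes or blood endothelial cells in a library, so those ratios had no value; nor did monocytes between genotypes with libraries clustered separately, or dendritic or Langerhans cells over naive under that setting and with doublets kept. No paired analysis was possible because each group is 1 library. Genes with few UMIs, such as Il11, limit what this depth can resolve.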
